A study of Arabidopsis with 27 samples.

Results

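Genes of the leaf epidermis and its cuticle were followed in the gene expression table, taken by their gene identifiers from 32824 genes. There were 10: the epidermal transcription factors ATML1 (AT4G21750), PDF2 (AT4G04890) and GL2 (AT1G79840), the fatty acid elongases FDH (AT2G26250), CER6 (AT1G68530), KCS1 (AT1G01120) and KCS12 (AT2G28630), the alkane-forming proteins CER1 (AT1G02205) and CER3 (AT5G57800), and the lipid transfer protein LTP1 (AT2G38540). RNA came from systemic rosette leaves of Arabidopsis, that is, from leaves not treated themselves, frozen 30 min after a local leaf of the same rosette was treated. Plants were 4 weeks old, and each of the 27 libraries came from a pool of 8 plants. The 3 genotypes were wild-type Col-0, the line glr3.3glr3.6, named for a pair of glutamate receptor-like channels, and the line p2k1p2k2, named for a pair of receptor kinases that bind extracellular ATP. In each genotype the local leaf received mock buffer, extracellular ATP (written eATP here, and given per the labels as 300 µM of its slowly hydrolysed analogue βγmeATP) or 100 mM L-glutamate (L-Glu). Each of the 9 groups held 3 libraries, which carry their group's name and a replicate number, as in Col-0 mock 1, and nothing in the labels says which cultures or days a number shares.

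The epidermis is the outer cell layer of the leaf and is covered by the cuticle, a polyester called cutin filled and overlaid with waxes. ATML1 and PDF2 are closely related homeodomain factors of the outer layer that switch on genes of epidermal identity, and GL2, of the same family, acts in trichome and root hair patterning. Waxes start from very-long-chain fatty acids, built by elongase complexes whose first and selective enzyme is a β-ketoacyl-CoA synthase (KCS). FDH, CER6, KCS1 and KCS12 are such synthases. CER1 and CER3 act together to turn very-long-chain acyl chains into alkanes, and LTP1 is a secreted lipid-binding protein of the epidermal wall. The leaf as a whole is mostly mesophyll, so these genes report on a minor share of the cells sampled. In such bulk RNA, fewer epidermal cells and less of a transcript per cell cannot be told apart.

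The values are FPKM (fragment counts scaled by transcript length and library size), which summed to between 740955 and 822758 per library, with 21042 to 21843 genes above 0; the read depth is not given. Mesophyll transcripts were abundant: the 9 mesophyll markers averaged from 1488 FPKM (CA1) to 9177 FPKM (RBCS1A). Of 12 stomatal lineage and guard cell markers, 7 averaged at least 1 FPKM. SPCH and MUTE averaged 0.26 and 0.128 FPKM, whereas FAMA averaged 8.33 and GC1 179.6 FPKM. The genes for which the lines are named were higher in the libraries of their line, without overlap. In libraries labelled glr3.3glr3.6, GLR3.6 ran from 70.5 to 134.8 FPKM, against 0.814 to 1.67 in the other 18, and GLR3.3 from 5.85 to 8.05 against 3.19 to 5.23. In libraries labelled p2k1p2k2, P2K2 ran from 6.15 to 37.8 FPKM against 0.308 to 0.967, and P2K1 from 3.44 to 10.2 against 0.917 to 2.37. The reason for these levels was not tested, and genotype names below mean the libraries labelled so.

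Mean levels of the 10 genes ran from under 1 FPKM for GL2 to 482.7 FPKM for LTP1. LTP1 stood at 482.7 ± 101.5 FPKM (SD, n = 27), followed by the 4 synthases FDH at 206.5 ± 28.0, CER6 at 128.5 ± 28.0, KCS12 at 114.3 ± 31.0 and KCS1 at 107.3 ± 14.7 FPKM. The identity factors stood lower, ATML1 at 36.6 ± 6.04 and PDF2 at 21.3 ± 3.53 FPKM, near the alkane-forming pair, CER3 at 16.8 ± 2.25 and CER1 at 10.3 ± 6.40 FPKM. GL2 was the lowest of the 10 at 0.779 ± 0.345 FPKM and lay under 1 FPKM in 18 of 27 libraries. LTP1 exceeded FDH, FDH exceeded CER6, KCS1 exceeded ATML1, ATML1 exceeded PDF2 and CER1 exceeded GL2 in 27 of 27 libraries each. Other neighbours in this order were within each other's spread: CER6 was above KCS12 in 19 libraries, KCS12 above KCS1 in 18, PDF2 above CER3 in 22 and CER3 above CER1 in 20. CER1 varied most of the 10 relative to its mean, with a coefficient of variation of 62.4% against 13.4% for CER3, its partner.

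**Figure D1:**
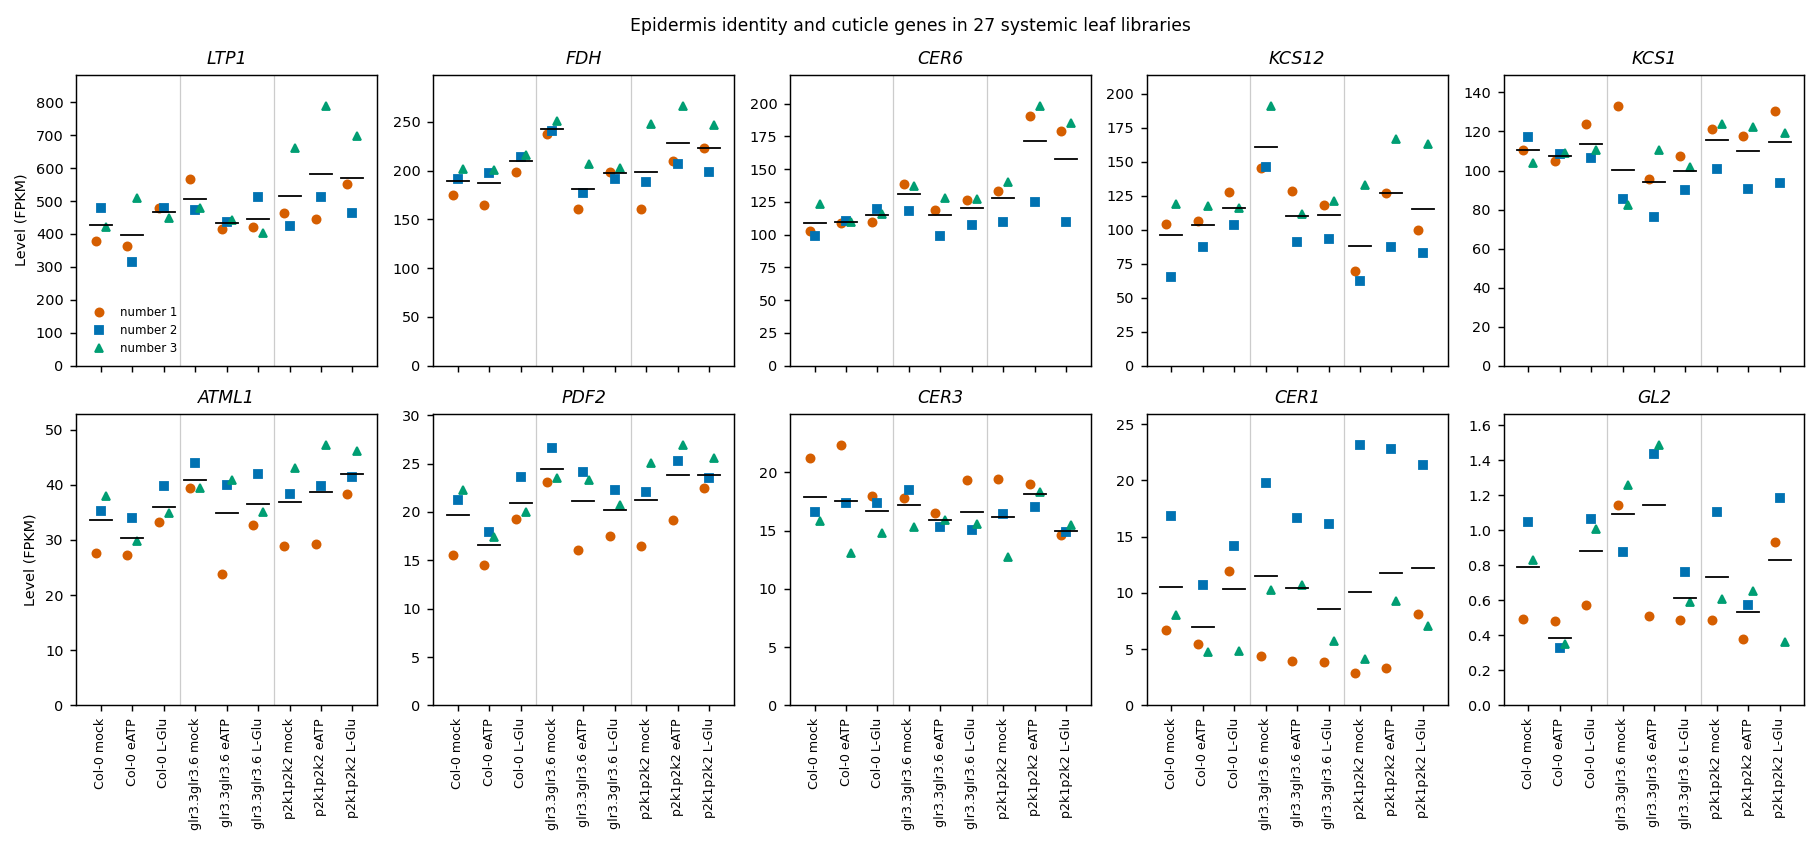
Level in FPKM (vertical axes, linear and starting at 0) of each of the 10 genes in the 9 groups, with 1 point per library, shaped and coloured by replicate number, and a bar at the group mean. CER1 is highest in the library of number 2 in every group, and PDF2 is lowest in the library of number 1 in every group.

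The 4 synthases were among the most abundant of their family. Of 21 KCS genes in the table, FDH (also named KCS10) ranked 1, CER6 (KCS6) ranked 2, KCS12 ranked 4 and KCS1 ranked 5 by mean FPKM, with KCS20 between them at 121.6 FPKM and KCS8 next at 97.9 FPKM. Besides CER1 and CER3, 4 genes of wax products were listed, and 0 of these averaged 1 FPKM or more. Wax itself was not measured. CER4, the fatty acyl reductase of primary alcohols, averaged 0.16 FPKM and WSD1, the wax ester synthase, 0.934 FPKM. MAH1, the midchain alkane hydroxylase, was listed at 0 in all 27 libraries. Adjacent related genes were far below the genes described here, LTP2 beside LTP1 at 4.35 FPKM and AT1G02190 beside CER1 at 0.145 FPKM. How reads shared between such copies were assigned is not given in the sources used here. Of trichome specification genes, GL1 was listed at 0 in 26 libraries and GL3 in 22, whereas MYB23, a relative of GL1, averaged 2.66 FPKM and TTG1, which is used well beyond trichomes, averaged 55.2 FPKM.

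GL2 had a mean under 1 FPKM and so did not pass the filter, which left 9 of the 10 genes, and 16577 genes in all, for testing. Differences below are on the log2(FPKM + 1) scale, which understates changes of low genes, from limma's moderated test over all 27 libraries, with p adjusted by Benjamini-Hochberg over the 16577 genes, and those with an adjusted p under 0.05 count as called. Their p-values measure the spread between pools of plants. In fits without the replicate number, that spread also holds the differences between numbers.

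The first question was whether the systemic leaf showed a change of epidermal and cuticle transcripts 30 min after eATP or L-Glu. No such change was detected by limma: 0 of 9 genes were called in each of the 6 comparisons with mock, against a background of 0% of all genes in each. At an unadjusted p under 0.05, the count of the 9 in Col-0 was 0 after eATP (2.64% of all genes) and 0 after L-Glu (0.881%). It was 1 after eATP (3.38%) and 1 after L-Glu (1.98%) in glr3.3glr3.6, and 1 after eATP (1.79%) and 0 after L-Glu (1.72%) in p2k1p2k2. These counts leave out the replicate number. It was also added across genotypes, for comparisons where same-numbered libraries deviated together. Unadjusted limma p was then under 0.05 after L-Glu in glr3.3glr3.6 for FDH (0.00467), KCS12 (0.00545) and PDF2 (0.0126). In p2k1p2k2 it was so after eATP for KCS12 (0.00407), CER6 (0.00479) and FDH (0.037). After L-Glu in p2k1p2k2 it was so for KCS12 (0.0277) and CER6 (0.0415), and in Col-0 after L-Glu the smallest was 0.0868 (KCS12). The limma adjusted p of all these was 0.59 or more, and the share of all genes in that fit is not given. Without the number, the median standard error of a gene's difference was 0.18. Estimates in Col-0 ran from -0.50 (CER1) to 0.14 (KCS12) after eATP and from -0.09 (CER3) to 0.31 (KCS12) after L-Glu.

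Of the synthases in glr3.3glr3.6, FDH had the smallest p. FDH stood at 237.7, 240.1 and 250.7 FPKM in mock (numbers 1, 2 and 3), at 161.1, 176.7 and 207.0 FPKM after eATP and at 198.5, 191.5 and 202.7 FPKM after L-Glu. Both treated groups lay wholly below the mock group. Of the 9 genes 3 did not overlap mock after eATP (FDH, KCS12 and LTP1), where 6.78% of all genes did not, and 3 after L-Glu (FDH, KCS12 and PDF2), where 5.53% did not. The FDH difference was -0.42 ± 0.13 (SE) after eATP, with an unadjusted p of 0.00483, and -0.30 ± 0.13 after L-Glu, with an unadjusted p of 0.0393; the limma adjusted p was 1 in both. Within numbers 1, 2 and 3 it was -0.56, -0.44 and -0.28 after eATP and -0.26, -0.33 and -0.31 after L-Glu. Both estimates use the same 3 mock libraries, in which FDH was also above every Col-0 library of any treatment (165.1 to 215.5 FPKM).

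KCS12 had the same layout. In glr3.3glr3.6 mock it stood at 145.3, 146.2 and 191.2 FPKM, after eATP at 128.4, 91.3 and 111.3 FPKM and after L-Glu at 118.4, 93.5 and 120.8 FPKM. Neither treated group overlapped the mock group. The differences were -0.54 ± 0.28 after eATP (unadjusted p of 0.0699) and -0.53 ± 0.28 after L-Glu (unadjusted p of 0.0755), with a limma adjusted p of 1 for each. In p2k1p2k2 the KCS12 estimates had the other sign, 0.55 ± 0.28 after eATP and 0.40 ± 0.28 after L-Glu. There the groups overlapped, since the mock libraries ran from 62.5 to 133.1 FPKM. Within numbers 1, 2 and 3 the KCS12 difference was 0.86, 0.48 and 0.32 after eATP and 0.52, 0.41 and 0.29 after L-Glu. With the replicate number added to the fit across genotypes, the standard error was 0.17 and the limma adjusted p 0.822 and 0.946.

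CER6, needed for the longest wax precursors of the shoot, was the gene with the smallest p after eATP in p2k1p2k2 in the fit without the replicate number. It stood at 133.5, 109.9 and 139.8 FPKM in mock and at 190.8, 124.6 and 198.3 FPKM after eATP. Numbers 1 and 3 were high after eATP, while number 2 lay inside the range of mock. The CER6 difference was 0.40 ± 0.18, with an unadjusted p of 0.0362 and a limma adjusted p of 1, and by number it was 0.51, 0.18 and 0.50. With the number added across genotypes, CER6 had an unadjusted p of 0.00479 and KCS12 the smaller one, 0.00407, each with a limma adjusted p of 0.822. After L-Glu CER6 stood at 179.1, 109.3 and 185.5 FPKM, again with number 2 apart, and its difference from mock was 0.27 ± 0.18. KCS1 had the narrowest span of estimates, from -0.07 to 0.04 over the 6 comparisons, with a standard error of 0.17.

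ATML1 and PDF2 had estimates of like sign in each comparison. In Col-0 they were -0.14 ± 0.19 and -0.22 ± 0.17 after eATP, and 0.10 ± 0.19 and 0.10 ± 0.17 after L-Glu. In glr3.3glr3.6 after eATP they were -0.26 and -0.22, and after L-Glu -0.16 and -0.27, where the PDF2 groups did not overlap (17.5, 22.2 and 20.7 FPKM against 23.1, 26.7 and 23.5 FPKM). In p2k1p2k2 after eATP they were 0.06 and 0.16, and after L-Glu 0.20 and 0.18. The 95% interval of each of these values included 0, and for ATML1 in Col-0 after eATP it ran from -0.53 to 0.26. CER1 was the least constrained, with a standard error of 0.72, and its Col-0 estimate after L-Glu had an interval from -1.53 to 1.46, whereas that of CER3 ran from -0.41 to 0.24. GL2, which was not tested, stood at 0.492, 1.05 and 0.828 FPKM in Col-0 mock and at 0.483, 0.328 and 0.353 FPKM after eATP. Those 3 values lay below every mock value, while 0 of the 9 tested genes and 4.68% of all genes did not overlap there. In glr3.3glr3.6 GL2 stood at 1.14, 0.879 and 1.26 FPKM in mock and at 0.486, 0.759 and 0.593 FPKM after L-Glu. These groups did not overlap either, as for 5.53% of all genes. LTP1 estimates ran from -0.23 in glr3.3glr3.6 after eATP to 0.16 in p2k1p2k2 after eATP, each with a standard error of 0.20.

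**Figure D2:**
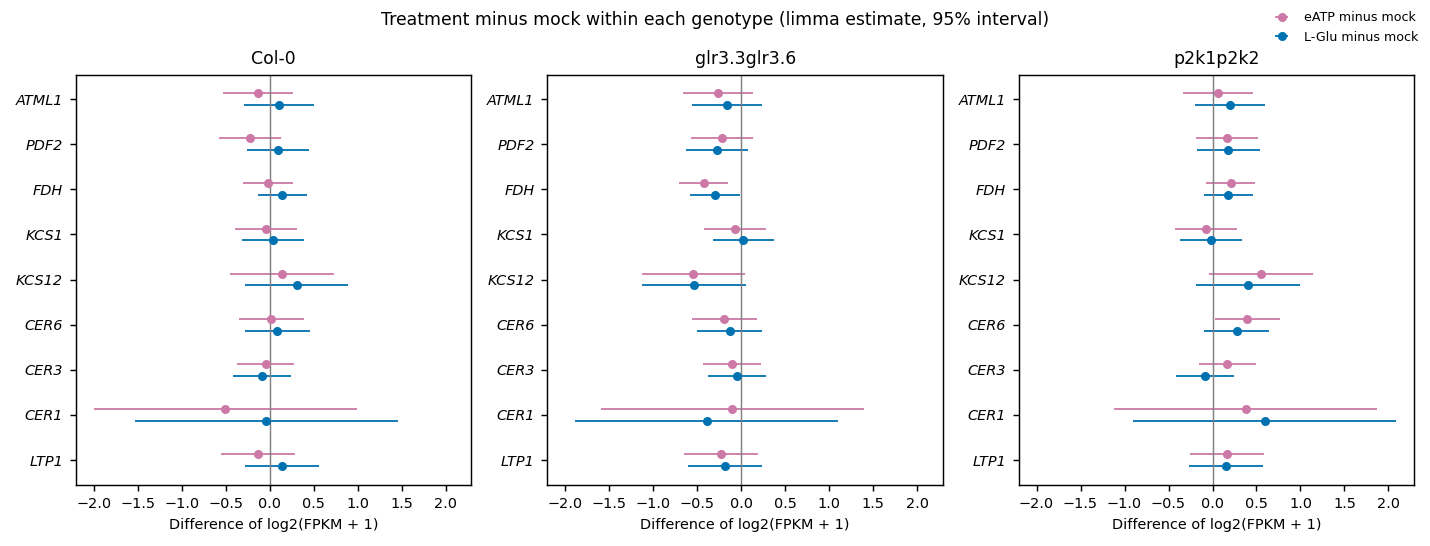
Difference of log2(FPKM + 1) from mock (horizontal axes) for the 9 tested genes in each genotype, with points for eATP and L-Glu and bars for the 95% interval of the limma estimate. Most estimates lie left of 0 in glr3.3glr3.6, with FDH at -0.42 after eATP, and right of 0 in p2k1p2k2, with CER6 at 0.40 after eATP, and 0 of 9 genes were called in any panel.

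Taken as a list, the 9 genes had a median difference of -0.04 after eATP and 0.10 after L-Glu in Col-0, where the medians of all genes were -0.03 and 0.03. In glr3.3glr3.6 the medians were -0.22 after eATP, with 0 of 9 estimates above 0, and -0.19 after L-Glu, with 1 of 9 above 0, beside 0.01 and 0.00435 for all genes. In p2k1p2k2 they were 0.17 after eATP, with 8 of 9 above 0, and 0.18 after L-Glu, with 7 of 9 above 0, beside 0.04 and 0.01 for all genes. The 2 treatments of a genotype share its mock libraries, so their signs are not separate evidence. Of 46 other tested genes of epidermal fate, cuticle regulation, fatty acid elongation, cutin, lipid transport and trichomes, 0 were called in any of the 6 comparisons. In Col-0 14 of them were above 0 after eATP and 37 after L-Glu, in glr3.3glr3.6 9 and 8, and in p2k1p2k2 38 and 36. Their smallest p was for DEWAX, a repressor of wax genes, which in glr3.3glr3.6 differed by -0.44 ± 0.14 after eATP (unadjusted p of 0.00498, limma adjusted p = 1) and by -0.37 ± 0.14 after L-Glu. DCF, of the cutin list, was -0.32 ± 0.15 after eATP there and 0.29 ± 0.15 in p2k1p2k2. Of markers of other leaf cells in glr3.3glr3.6, 0 of 9 mesophyll markers were above 0 after either treatment, with medians of -0.15 after eATP and -0.10 after L-Glu. There 3 of 7 guard cell markers and 2 of 7 vascular markers were above 0 after eATP, and 2 of 7 and 0 of 7 after L-Glu. In Col-0 after eATP, guard cell markers had a median of -0.22 and vascular markers of -0.29. Their part in the values of the 9 genes was not tested.

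The agents set against each other gave 0 of 9 genes called in each genotype (background 0% in each). At an unadjusted p under 0.05, in the fit without the replicate number, the count was 0 of 9 each time, where 6.03% of all genes passed in Col-0, 1.66% in glr3.3glr3.6 and 1.63% in p2k1p2k2. PDF2 in Col-0 had the smallest p of these, at 14.5, 17.9 and 17.4 FPKM after eATP and 19.3, 23.6 and 19.97 FPKM after L-Glu. The PDF2 groups did not overlap, the only such gene of the 9 in Col-0 (8.32% of all genes), and the difference was -0.32 ± 0.17 (unadjusted p of 0.0732, limma adjusted p = 0.825). CER3 in p2k1p2k2, alone of the 9 there (5.32% of all genes), did not overlap either, at 19.0, 17.0 and 18.3 FPKM after eATP and 14.6, 14.9 and 15.5 FPKM after L-Glu, with a difference of 0.26 ± 0.16 (limma adjusted p = 1). Same-numbered libraries deviated together in these comparisons. With the number added across genotypes, PDF2 in Col-0 had an unadjusted p of 0.00389 (limma adjusted p = 0.213). CER3 in p2k1p2k2 then had an unadjusted p of 0.0405 (limma adjusted p = 0.88). The share of all genes under 0.05 in that fit is not given. GL2, which was not tested, did not overlap in Col-0, at 0.483, 0.328 and 0.353 FPKM after eATP and 0.574, 1.06 and 1.01 FPKM after L-Glu.

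The next question was whether the lines responded unlike Col-0. In the 4 tests of a difference between responses, 0 of 9 genes were called, with a background of 0% each time. At an unadjusted p under 0.05, 1 of 9 passed for eATP in glr3.3glr3.6 (1.77% of all genes) and 2 of 9 for L-Glu there (1.34%), and 0 of 9 for eATP (2.88%) and for L-Glu (1.06%) in p2k1p2k2. They were FDH, whose response in glr3.3glr3.6 minus that in Col-0 was -0.41 ± 0.19 for eATP (unadjusted p of 0.0442) and -0.44 ± 0.19 for L-Glu (unadjusted p of 0.0305), and KCS12 for L-Glu at -0.84 ± 0.40 (unadjusted p of 0.0494). The limma adjusted p was 1 for all 3, and all use the same mock libraries of glr3.3glr3.6 and Col-0. For CER6 the eATP response of p2k1p2k2 exceeded that of Col-0 by 0.38 ± 0.25, with a 95% interval from -0.15 to 0.90.

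Genotypes were compared first in mock libraries. For glr3.3glr3.6 against Col-0, 0 of 9 genes were called (0.0483% of all genes), and 2 of 9 passed an unadjusted p under 0.05 (2.16%). FDH was 237.7, 240.1 and 250.7 FPKM against 175.2, 191.3 and 202.0 FPKM in Col-0, without overlap, a difference of 0.36 ± 0.13 (unadjusted p of 0.0147, limma adjusted p = 1). KCS12 was 145.3, 146.2 and 191.2 FPKM against 104.0, 65.2 and 119.2 FPKM, also without overlap, a difference of 0.77 ± 0.28 (unadjusted p of 0.013, limma adjusted p = 1). These values are from the fit without the replicate number. With the number as a block, the limma adjusted p of KCS12 was 0.153 across genotypes and 0.0216 within genotype, so its call depended on the block. ATML1 stood at 39.4, 44.0 and 39.3 FPKM against 27.7, 35.2 and 37.9 FPKM and PDF2 at 23.1, 26.7 and 23.5 FPKM against 15.6, 21.2 and 22.3 FPKM. Both factors were without overlap between the lines, at differences of 0.29 ± 0.19 and 0.31 ± 0.17. That made 4 of 9 genes, beside 5.16% of all genes, and ATML1 and PDF2 share nearly 1 pattern across libraries, so they are not separate observations. The median of the 9 genes was 0.27, beside 0.00607 for all genes, and 41 of the 46 other epidermal and cuticle genes were above 0, with a median of 0.13. Guard cell markers there had a median of -0.11 and mesophyll markers of 0.02.

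For p2k1p2k2 against Col-0 in mock, 0 of 9 genes were called (0.0362%), and 0 of 9 passed an unadjusted p under 0.05 (2.18%). With the replicate number as a block across genotypes, since same-numbered libraries of these groups deviated together, 0 of 9 were called too. The smallest limma adjusted p of the 9 was then 0.851 (CER6). A block within genotype, which does not pair libraries of different genotypes, also called 0 of 9, and with it the number of all genes called went from 6 to 10. LTP1 had the highest estimate of the 9, 0.25 ± 0.20, from 462.3, 423.6 and 660.0 FPKM against 378.8, 479.8 and 420.1 FPKM, and the groups overlapped.

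Averaged over the 3 treatments, with 9 libraries a genotype, CER6 in p2k1p2k2 stood furthest from Col-0 relative to its error. It ran from 109.3 to 198.3 FPKM with a median of 139.8 in p2k1p2k2, and from 99.2 to 123.7 FPKM with a median of 109.6 in Col-0. The difference was 0.42 ± 0.10, with an unadjusted p of 0.000517 and a limma adjusted p of 0.0961. CER6 thus did not pass in this fit, which has no replicate block. With the replicate number as a block it passed, at a limma adjusted p of 0.000234 within and 0.0025 across genotypes. The block within genotype takes the spread between numbers out of the error separately in each genotype. Its p thus does not measure how the genotype difference varied between numbers. The CER6 difference was 0.63 within number 1, 0.06 within number 2 and 0.57 within number 3, so number 2 held little of it. In the fit without a block, leaving out p2k1p2k2 eATP 2 gave a CER6 difference of 0.49 (limma adjusted p = 0.0407). Leaving out p2k1p2k2 L-Glu 2 gave 0.50 (limma adjusted p = 0.0185), so in that fit either library decided the call. LTP1 ran from 423.6 to 789.5 FPKM, median 513.5, against 314.1 to 510.7 FPKM, median 448.6, a difference of 0.35 ± 0.12 (limma adjusted p = 0.202) that was 0.26, 0.16 and 0.64 within numbers. PDF2 ran from 16.4 to 26.9 FPKM, median 23.5, against 14.5 to 23.6 FPKM, median 19.3, a difference of 0.25 ± 0.10 (limma adjusted p = 0.264) that was 0.22, 0.17 and 0.37 within numbers. ATML1 was 0.22 ± 0.11. KCS12 at 0.01 ± 0.16, KCS1 at 0.03 ± 0.10 and CER1 at 0.05 ± 0.42 were near 0.

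In that comparison, without a block, 0 of 9 genes were called (0.109% of all genes) and 3 of 9 passed an unadjusted p under 0.05, beside 13.2% of all genes. With either replicate block 3 of 9 were called, CER6, LTP1 and PDF2, and the number of all genes called went up to 1156 of 16577. The median of the 9 genes was 0.14, beside 0.04 for all genes. Of the 46 other tested genes of the pathway 0 were called and 12 (26.1%) passed the unadjusted threshold, with 37 above 0 and a median of 0.16. Lipid transport held 4 of these 12, among them the transporters of cuticular lipids ABCG11 at 0.34 ± 0.09 (limma adjusted p = 0.14) and ABCG12 at 0.24 ± 0.07 (0.15). Among cutin genes DCF was at 0.37 ± 0.08 (limma adjusted p = 0.0781) and BDG, a hydrolase of cutin formation, at 0.35. Fatty acid supply and elongation held 4: ACC1, the cytosolic acetyl-CoA carboxylase, at 0.31, the acyl-CoA synthetase LACS2 at 0.25, CER26 at 0.29 and, with the other sign, the synthase KCS8 at -0.30 (KCS8 was chosen after its values were seen, to complete the 4). Regulators of the cuticle did not share this sign, with a median of -0.04 and MYB96, an activator of wax genes, at -0.31 ± 0.16. All 7 tested vascular markers were above 0 too, with a median of 0.11 and ATHB8 at 0.35 ± 0.11; their summed level ran from 134.8 to 188.5 FPKM in p2k1p2k2 and from 125.6 to 172.6 FPKM in Col-0. Mesophyll markers had a median of 0.03 and guard cell markers of 0.08. The part of these cells in the CER6, LTP1 and PDF2 values was not tested.

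For glr3.3glr3.6 over the 3 treatments, 0 of 9 genes were called (0.151%) and 0 of 9 passed an unadjusted p under 0.05 (7.09%). PDF2 at 0.19 ± 0.10 and KCS1 at -0.19 ± 0.10 had the smallest p. KCS1 ran from 76.1 to 133.2 FPKM with a median of 95.7 in glr3.3glr3.6 and from 103.9 to 123.9 FPKM with a median of 109.0 in Col-0, and was lower within all 3 numbers, by estimates of -0.02, -0.40 and -0.14.

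**Figure D3:**
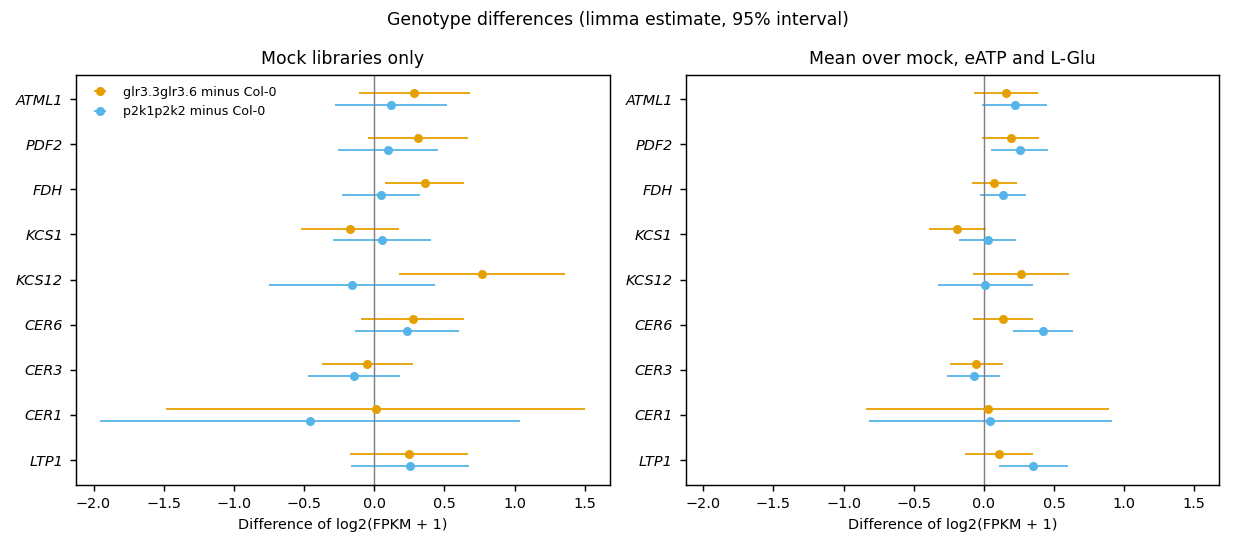
Difference of log2(FPKM + 1) from Col-0 (horizontal axes) for the 9 tested genes, in mock libraries on the left and averaged over the 3 treatments on the right, with points for the lines and bars for the 95% interval of the limma estimate. KCS12 at 0.77 in glr3.3glr3.6 mock and CER6 at 0.42 in p2k1p2k2 over treatments stand out. In this fit, which has no replicate block, 0 of 9 genes were called in either panel.

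Several of the genes differed between libraries of different replicate number. With the number added to the model, 6 of 9 genes were called between number 1 and the mean of numbers 2 and 3, where 53.2% of all genes were called, 18.5% higher and 34.7% lower in number 1. Of the 9 genes 4 were lower and 2 higher. Between numbers 2 and 3, 4 of 9 genes were called (26.4% of all genes), 1 higher in number 2 (12.8% of all genes) and 3 lower (13.6%). With so much of the whole table called, these counts show nothing particular to the 9 genes, and the direction of each gene is given as a description.

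The identity factors were lower in number 1. PDF2 ran from 14.5 to 23.1 FPKM, median 17.5, in number 1, from 17.9 to 26.7, median 23.5, in number 2 and from 17.4 to 26.9, median 23.3, in number 3. It was lowest in number 1 in 9 of 9 groups, and the difference was -0.32 ± 0.05 (limma adjusted p = 3.2e-05). ATML1 ran from 23.9 to 39.4 FPKM, median 29.3, in number 1, and had medians of 39.8 and 39.3 FPKM in numbers 2 and 3. It was lowest in number 1 in 8 of 9 groups, at -0.33 ± 0.06 (limma adjusted p = 0.000173). Between numbers 2 and 3 they differed by 0.01 ± 0.07 (ATML1) and 0.02 ± 0.06 (PDF2). GL2, below the filter, had medians of 0.492, 1.05 and 0.654 FPKM in numbers 1, 2 and 3.

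CER1 had the largest differences of the 9 between numbers. It ran from 2.91 to 11.9 FPKM, median 4.41, in number 1, from 10.7 to 23.1, median 16.9, in number 2 and from 4.10 to 10.7, median 7.06, in number 3. Number 2 exceeded number 3 in 9 of 9 groups, by 1.24 ± 0.21 (limma adjusted p = 0.000236), and number 1 lay below the mean of the other 2 by a difference of -0.97 ± 0.18 (limma adjusted p = 0.000195). In p2k1p2k2 mock CER1 went from 2.91 FPKM in number 1 to 23.1 in number 2 and 4.10 in number 3. CER3, its partner, went the other way in number 1: it was highest there in 7 of 9 groups, with a median of 19.0 FPKM against 16.6 and 15.5, at 0.22 ± 0.06 (limma adjusted p = 0.00381).

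The synthases differed among themselves. KCS12 was lower in number 2 than in number 3 in 9 of 9 groups, with medians of 87.3 and 120.8 FPKM and a difference of -0.61 ± 0.10 (limma adjusted p = 0.000163), and number 1 was not apart from the rest (0.03 ± 0.08). CER6 was lower in number 2, with a median of 109.9 FPKM against 126.4 in number 1 and 127.6 in number 3, at -0.32 ± 0.07 against number 3 (limma adjusted p = 0.00308). FDH was lowest in number 1 in 6 of 9 groups, at -0.16 ± 0.05 (limma adjusted p = 0.00856), and below number 3 in number 2 in all 9, at -0.17 ± 0.05 (limma adjusted p = 0.0221). KCS1 was higher in number 1, at 0.18 ± 0.07 (limma adjusted p = 0.0281). The FDH difference of number 1 did not pass with median-of-ratios scaling (-0.08 ± 0.05, limma adjusted p = 0.219), and that of KCS1 did not pass with quantile normalization (0.14 ± 0.07, limma adjusted p = 0.108) or without glr3.3glr3.6 mock 1 or p2k1p2k2 L-Glu 1 (0.0968 and 0.0623). The FDH difference between numbers 2 and 3 did not pass without p2k1p2k2 eATP 2, eATP 3, L-Glu 2 or mock 3, at limma adjusted p values from 0.0504 to 0.0548. LTP1 was called in neither, at -0.11 ± 0.09 and -0.22 ± 0.10, its highest values being in number 3 of p2k1p2k2 (660.0, 789.5 and 696.8 FPKM).

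**Figure D4:**
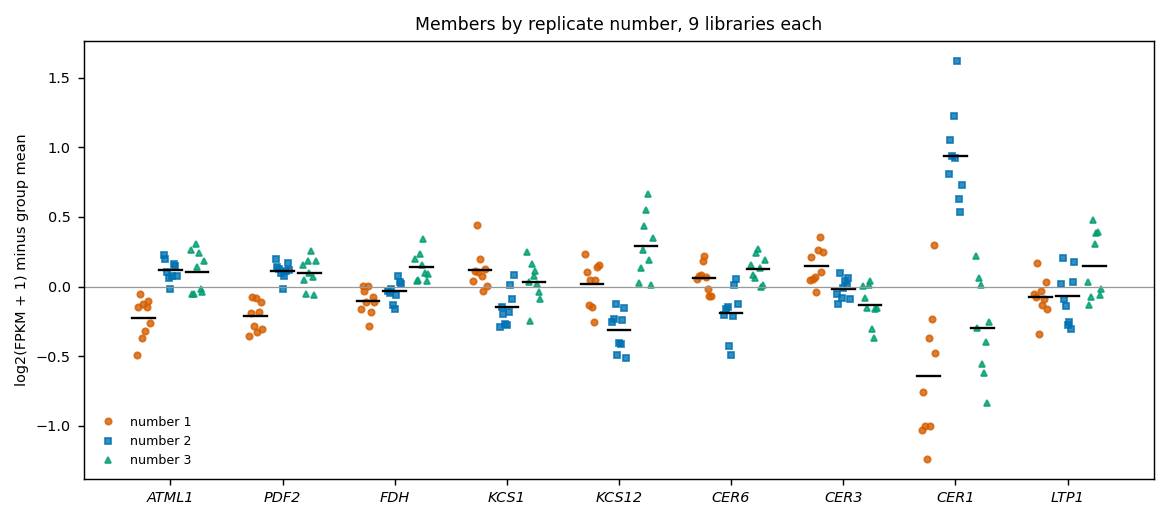
log2(FPKM + 1) of the 9 tested genes minus the mean of the library's group (vertical axis), with 1 point per library, 9 for each replicate number, and a bar at their mean. ATML1 and PDF2 are low in number 1, CER1 is high in number 2, and KCS12 is low in number 2 and high in number 3.

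Of 46 other epidermal and cuticle genes tested, 21 were lower and 5 higher in number 1, where 34.7% of all genes were lower and 18.5% higher. Between numbers 2 and 3, 10 were higher and 6 lower in number 2, beside 12.8% and 13.6% of all genes. Nothing particular to these lists is read from the counts, and single genes are given as descriptions. Among epidermal fate genes PDF1, a protodermal target of ATML1 and PDF2, was at -1.79 ± 0.24 in number 1 (limma adjusted p = 6.17e-06), and the homeodomain genes ANL2 and HDG1, relatives of ATML1, were at -0.45 ± 0.06 and -0.47 ± 0.07. In elongation and acyl activation 9 of 14 genes were lower and 2 higher, the higher ones being the synthases KCS9 at 0.12 ± 0.05 and KCS3 at 0.18 ± 0.07. Among the lower ones were LACS1, a long-chain acyl-CoA synthetase, at -1.27 ± 0.10, CER10, the enoyl reductase of the elongase, at -0.55 ± 0.06 and CER26, a CER2-related protein of elongation, at -0.46 ± 0.05. The activators of wax genes MYB94 and MYB96 went apart, at -0.39 ± 0.07 and 0.43 ± 0.09. In cutin genes CYP86A8 was at -0.45 ± 0.06 and CYP86A2 at 0.27 ± 0.06, both being fatty acid hydroxylases.

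Markers of other leaf cells were also called between numbers. In number 1, 4 of 7 tested guard cell markers were lower and 1 higher, 5 of 9 mesophyll markers lower and 1 higher, and 5 of 7 vascular markers lower and 0 higher, in a comparison that called 53.2% of all genes. KAT1, a guard cell potassium channel, was at -0.67 ± 0.08, and XCP2, a xylem protease, at -0.90 ± 0.10. The summed vascular markers ran from 125.6 to 156.6 FPKM in number 1, from 159.7 to 188.5 in number 2 and from 140.2 to 180.4 in number 3. The summed mesophyll markers ran from 38627 to 44667 FPKM, from 42953 to 49057 and from 40491 to 46516 in the same order. The summed guard cell markers, most of which is GC1, ran from 173.5 to 277.1 FPKM in number 1, from 130.2 to 192.8 in number 2 and from 175.8 to 257.8 in number 3. For each of these sums number 3 overlapped number 1. The dividing-cell markers KNOLLE, CYCB1;1 and CDKB2;1 together ran from 0.914 to 2.24 FPKM in number 1, from 2.39 to 4.44 in number 2 and from 1.297 to 2.83 in number 3, and CDKB2;1 was lower in number 1 at -0.42 ± 0.08. The part of cell make-up in the values of ATML1, PDF2 and CER1 was not tested.

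**Figure D5:**
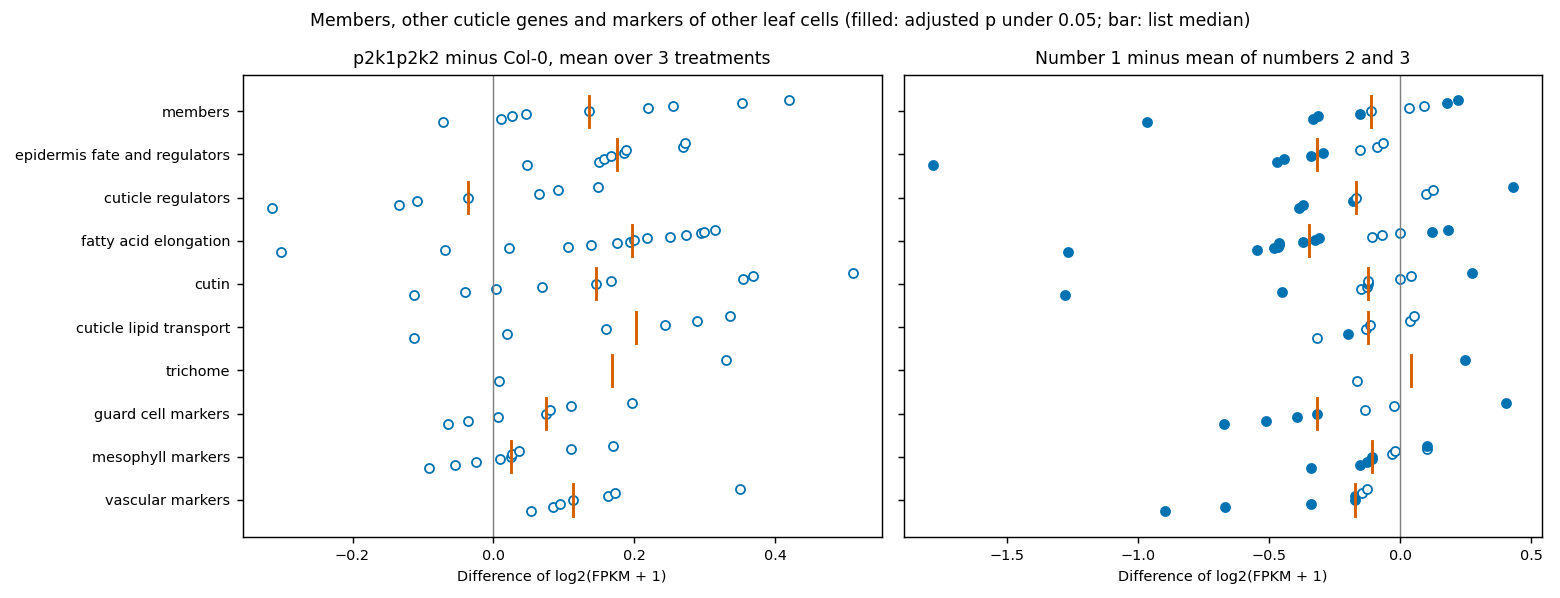
Difference of log2(FPKM + 1) (horizontal axes) of each tested gene of the lists, for p2k1p2k2 minus Col-0 over 3 treatments on the left and for number 1 minus the mean of numbers 2 and 3 on the right, with filled points for an adjusted p under 0.05 and a bar at each list's median. On the left 0 listed genes are filled; on the right 6 of the 9 genes described here and of the 46 other epidermal and cuticle genes 21 are filled left of 0 and 5 right of it.

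The share of each gene's variance that went with the number, the genotype and the treatment set these results side by side. CER1 had 71.3% of its variance with number and 0.0545% with genotype. ATML1 had 43.6% with number and 14.9% with genotype, and PDF2 40.5% and 21.4%. CER6 was the only one of the 9 besides LTP1 with more for genotype (40.4%) than for number (24.3%); LTP1 had 28.9% and 14.2%. FDH had its largest share, 37.7%, with the combination of genotype and treatment, and KCS12 had 29.3% there. Treatment by itself held 7.55% for ATML1 and less for the other 8, down to 0.444% for CER1. The medians of all genes were 31.4% for number, 7.88% for genotype, 3.75% for treatment and 9.41% for the combination.

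Across the 27 libraries, ATML1 and PDF2 had nearly the same pattern, with a Pearson r of 0.944 on log2(FPKM + 1), and each was the gene most like the other among all tested genes. FDH followed both less closely (0.738 with ATML1 and 0.746 with PDF2), and CER1 and CER3 were not alike (-0.121). By the same measure the tested gene most like PDF2 after ATML1 was CER26 (0.912), and that most like FDH was ABCG11 (0.806). CER6 was most like PME44, a pectin methylesterase (0.889), CER1 most like TBL45 (0.911) and LTP1 most like ALDH3F1, an aldehyde dehydrogenase (0.865). For CER3 it was AT1G19835 (0.824), for KCS1 AT1G06690 (0.871) and for KCS12 AT5G63190 (0.794). These libraries share replicate numbers and groups, so the r values are descriptions.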

How the data were processed

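The authors deposited 1 table of FPKM values for 27 libraries of systemic leaf RNA. Per the submitters' processing notes, reads were handled with HISAT2 2.2.1 and SAMtools 1.19 on the TAIR10 build, Cufflinks and Cuffdiff (both 2.2.1), and, for trimming and quality, Trim Galore 0.6.7 and FastQC 0.11.9; their settings are not given in the sources used here. FPKM divides by transcript length and library total, so levels can be compared between genes, but a shift of abundant transcripts moves all values, and the counts behind them are unknown. Gene names were checked against a RefSeq table of another assembly version, so no coordinates are given.

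Values were transformed as log2(FPKM + 1), and the filter kept genes whose 27 libraries averaged 1 FPKM or more. limma 3.58.1 in R 4.3.3 was fitted to all 27 libraries with 1 mean per group and a trended prior (18 residual and 3.09 prior degrees of freedom), with two-sided tests over 19 comparisons. For replicate numbers the number was added as a factor. The procedure was tested on simulated data. Same-numbered libraries were taken as paired where every pair of their deviations from group means correlated above 0.1. This held for L-Glu against mock in each genotype, for eATP against mock in p2k1p2k2, for the agents against each other, for p2k1p2k2 against Col-0 in mock and for the L-Glu response of p2k1p2k2 against Col-0.

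All 10 genes were followed in every comparison, but not all of them are described in each. Of other lists, up to 3 genes with the smallest p and any called gene may be named (KCS8 was named after its values were seen). For likeness the 3 genes with the highest r may be named. The genes and the lists were chosen with earlier results of these data known. Alternatives were another pseudocount, other filters, other scalings, library weights, replicate blocks, fits to the compared libraries alone, and omission of libraries.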

Additional observations from a re-analysis of the deposited data

How the results depend on the processing

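The treatment comparisons kept 0 of 9 genes called under every alternative run. For glr3.3glr3.6 against Col-0 in mock, the replicate block within genotype called 1 gene, KCS12 (limma adjusted p = 0.0216), and the block across genotypes 0. For p2k1p2k2 against Col-0 over the 3 treatments, either replicate block called 3 genes: CER6 (limma adjusted p = 0.000234 within and 0.0025 across genotypes), LTP1 (0.0215 and 0.0474) and PDF2 (0.0185 and 0.0137). Library weights called 1 there, LTP1 (0.52 ± 0.11, limma adjusted p = 0.0331), and leaving out each library in turn gave 0 to 1. In these comparisons same-numbered libraries were not paired by the correlation set above, although all 27 libraries correlated best with their own number. For a difference between genotypes, the p of the block within genotype does not measure how that difference varied between numbers. Neither block changed any other call of the 9 genes. KCS1 between numbers 2 and 3 passed with library weights (-0.24, limma adjusted p = 0.00993) and without glr3.3glr3.6 mock 1, glr3.3glr3.6 mock 3 or Col-0 mock 2 (limma adjusted p = 0.0428, 0.0222 and 0.0364). No difference of a called gene reversed. Over all genes, the number called for p2k1p2k2 over treatments went from 18 to 1156 and 1098 with the blocks, 157 with weights, 31 with median-of-ratios scaling, 11 at a mean of at least 5 FPKM and 10 in the libraries compared alone. For glr3.3glr3.6 it went from 25 to 394 and 381 with the blocks and 41 with weights. In mock it went from 8 to 13 and 12 with the blocks for glr3.3glr3.6, and from 6 to 10 and 9 for p2k1p2k2, with 3 at a mean of at least 5 FPKM and 0 in the libraries compared alone. In comparisons with 0 genes called it reached at most 33, for L-Glu in glr3.3glr3.6 with weights. The cause was not tested. The read depth is unknown, so for GL2, near 1 FPKM, the counting error cannot be given.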
